A study of Mus musculus with 27 samples.

Results

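The genes described here are 37 mouse genes of glycolysis and of the response to low oxygen, taken by symbol. Each was represented by 1 microarray probe, the one with the highest mean over all arrays, and all 37 were found among 37208 genes and transcripts, of which 20145 carry a symbol. By role the list holds 4 glucose and lactate carriers, 9 enzymes of upper glycolysis, 6 enzymes of lower glycolysis and lactate formation, 4 regulators of glycolysis and pyruvate use, 2 oxygen sensors, 3 genes of mitophagy and mitochondria, 3 genes of collagen hydroxylation and oxidative folding, and 6 other hypoxia-induced genes.

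Glycolysis splits glucose to pyruvate in the cytosol, and lactate dehydrogenase turns pyruvate to lactate when it does not enter mitochondria. When oxygen is plentiful, the EGLN prolyl hydroxylases mark hypoxia-inducible factors (HIFs) for destruction; when oxygen is low, HIFs persist and bind DNA with the core letters ACGTG or GCGTG near the genes of glucose uptake, glycolysis, mitophagy and oxygen sensing. Early embryonic cells are known for a high rate of glycolysis, which changes as they differentiate.

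The cells were mouse embryonic stem cells (ESCs) of an A2lox clone that carry, in the Hprt locus, a Flag-tagged dominant-negative FOS peptide (dnFOS) under a doxycycline (DOX)-inducible promoter. The peptide pairs with JUN proteins and keeps AP-1 off DNA. All arrays, controls included, come from these cells. DOX was never given to cells lacking the cassette, so the drug and the peptide cannot be told apart. The ESCs had been kept on mouse embryonic fibroblast feeders, were differentiated as embryoid bodies for 3.75 days, and the FLK1+ mesoderm was then purified on magnetic columns and put into blast culture. RNA came from freshly purified FLK1+ cells, from cells after 5 h of blast culture (FLK1+ 5h), from complete day 1 blast cultures (d1 BC), and from 4 populations sorted on day 2, namely smooth muscle cells (SM), KIT+TIE2+CD41- hemogenic endothelium (HE1), KIT+TIE2+CD41+ cells (HE2) and KIT+TIE2-CD41+ hematopoietic progenitors (HP). Except for fresh FLK1+ cells, each was taken untreated (the labels read with AP-1) and with 1 µg/ml DOX (without AP-1) for 5 h, 1 day or 2 days. Each of the 13 groups has 2 arrays, and untreated SM has 3. Nothing states that the arrays of a group come from separate cultures, so each p-value measures the spread between these arrays, which may be technical.

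Levels are log2 values of the scanner's processed signal with each array's 75th percentile set to 0, and are compared only within a gene, since probes differ in brightness. That percentile ran from 78.8 to 732 signal units, and 48.0% to 89.7% of probes lay well above background. The arrays came from 5 slides. The summed log2 level of 7 mesoderm markers was 7.16 to 7.54 in FLK1+ cells and 3.64 to 4.60 in d1 BC, that of 8 smooth muscle markers was 6.48 to 6.79 in FLK1+ cells and 9.83 to 10.83 in SM, that of 8 endothelial markers was 6.58 to 7.55 in HE1 against 3.72 to 4.33 in d1 BC, and that of 8 hematopoietic progenitor markers was 5.20 to 5.44 in HE1 and 7.00 to 7.20 in HP. Smooth muscle markers were as high in d1 BC (10.07 to 10.69) as in SM. SM replicate 2 stood apart from the other 2 SM arrays, with endothelial markers at 6.19 against 3.84 and 3.61 and progenitor markers at 4.72 against 2.85 and 3.03. SM arrays also held erythroid markers at a summed level of 6.08 to 8.95, with all 10 above background. The 2 d1 BC arrays differed too. Replicates 1 and 2 had erythroid markers at 4.33 and 6.24 and 5 megakaryocyte markers at 0.47 and 5.13. Hprt, next to the cassette, lay higher on every DOX array than on every untreated array of the same population, by 1.45 log2 units at 5 h, 2.17 in HP, 2.84 in HE2, 3.22 in HE1, 3.49 in SM and 3.63 in d1 BC, and limma called it in SM alone (adjusted p = 0.0266).

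Among the untreated populations 18 of the 37 genes varied by limma's F test, against 17.8% of all 27466 genes tested. They were 3 of 4 carriers, 3 of 9 upper and 4 of 6 lower glycolysis genes, 3 of 4 regulators, 1 of 2 oxygen sensors, 1 of 3 mitochondrial genes, 1 of 3 genes of collagen and folding, and 2 of 6 other hypoxia-induced genes. In FLK1+ cells 19 of the 37 genes had their highest population mean, whereas 19.7% of all genes tested did. HP was highest for 6 genes (16.8% of all genes), d1 BC for 4, SM for 3, FLK1+ 5h and HE1 for 2 each and HE2 for 1. Without FLK1+ replicate 1 the F test called 10 genes. The lowest mean was that of HE1 for 9 genes and that of HE2 for 9, and over all genes tested it was that of HE1 for 13.3% and of HE2 for 12.4%. The genes did not move as a block, as the map of all untreated arrays shows.

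**Figure D1:**
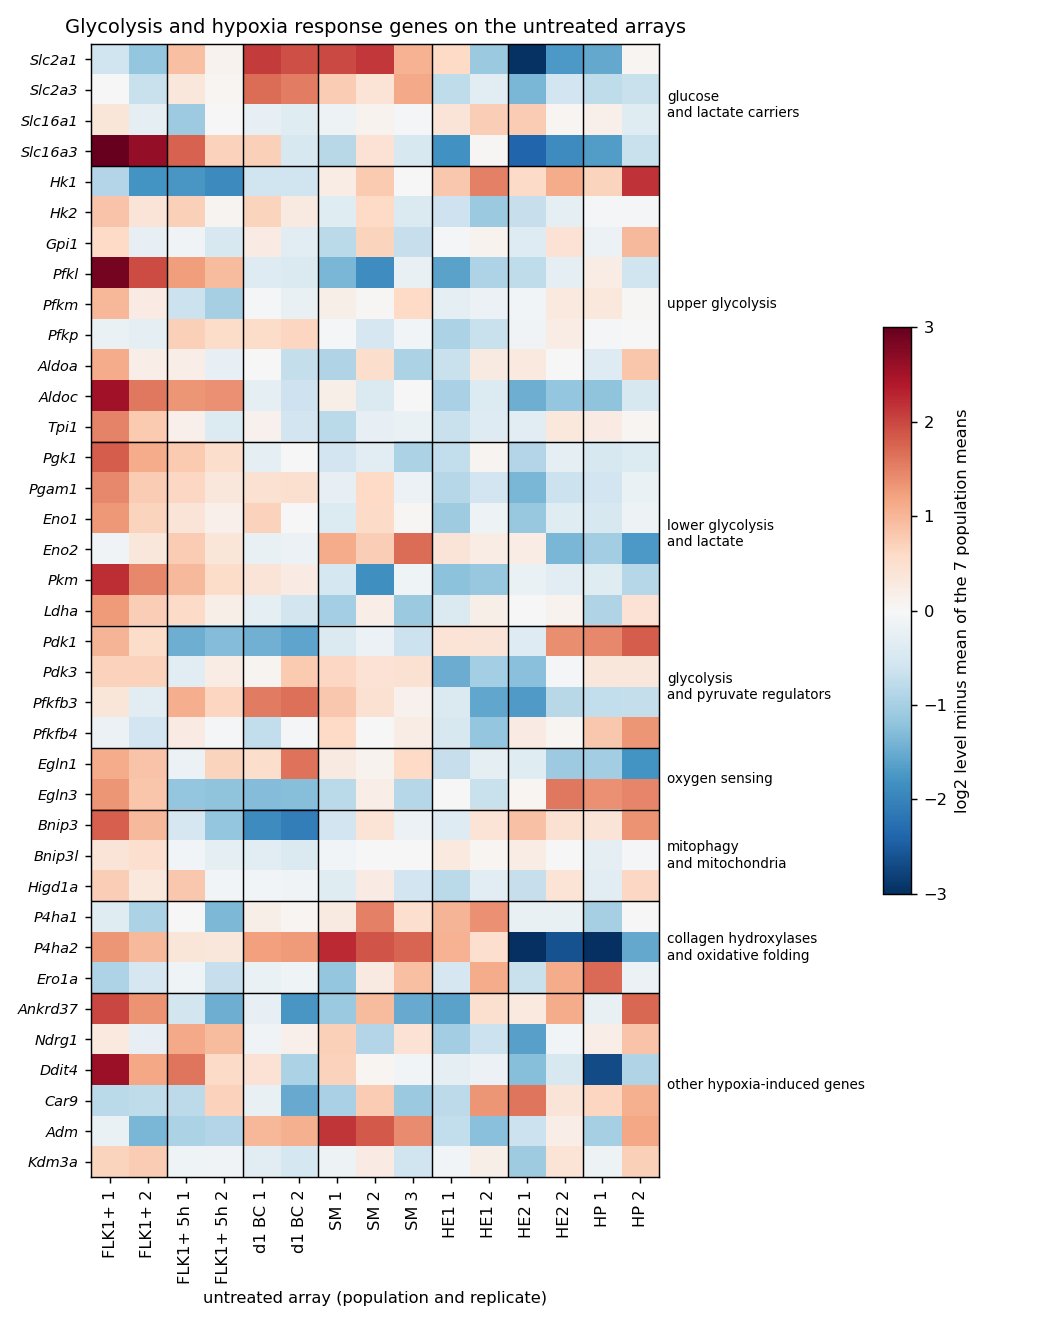
Log2 level of each of the 37 genes (rows, by role) on each untreated array (columns, by population and replicate), coloured by its difference from the mean of that gene's 7 population means. The FLK1+ columns are highest for 19 of the 37 genes, while Slc2a1, Slc2a3 and Pfkfb3 peak in d1 BC or SM and P4ha2 drops in HE2 and HP.

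The 9 comparisons of untreated populations gave 13 calls in 10 of the genes, a call being a Benjamini-Hochberg adjusted p under 0.05 over all genes tested in that comparison together with a change of at least 2-fold. In each of the 13 the arrays of the 2 populations did not overlap. The calls fell in FLK1+ 5h against FLK1+ (1 gene), d1 BC against FLK1+ (7), HE1 against d1 BC (2), HE2 against HE1 (1) and HP against HE1 (2). In all genes tested these comparisons called 2.69%, 4.49%, 3.17%, 2.31% and 4.27%. They are not independent, since each shares the arrays of a population with another. The count rests on few arrays: it was 2 without d1 BC replicate 2, 4 without FLK1+ replicate 1 or d1 BC replicate 1, and 7 without FLK1+ replicate 2. Other scalings and error models gave 9 to 36 calls. Since the samples are bulk RNA, fewer cells of a type and less RNA per cell cannot be told apart in any of them.

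From FLK1+ cells to day 1 of blast culture, 2 glucose carriers rose and 5 genes of glycolysis, pyruvate use, mitophagy and oxygen sensing fell. That is 2 of 36 genes tested higher, against a background of 2.7%, and 5 of 36 lower, against 1.79%. Over the 36 genes the median change was -0.63 on the log2 scale, and over all genes tested it was -0.06. The FLK1+ and d1 BC arrays did not overlap for 19 of the 36 genes in the lower direction, or 52.8% against 30.8% of all genes tested, and for 8 in the higher direction, or 22.2% against 26.4%. Over the same interval the mesoderm markers fell and the smooth muscle markers rose (6 of 7 and 5 of 8 called), the summed level of 7 fibroblast markers was 2.10 to 2.21 in FLK1+ cells and 4.86 to 5.11 in d1 BC, and that of 6 pluripotency markers was 4.28 to 4.58 and 1.05 to 1.64 (1 of 6 called lower). Their part in these changes was not tested. No gene was called in this step without FLK1+ replicate 1 or without d1 BC replicate 2, 3 were called without FLK1+ replicate 2 and 2 without d1 BC replicate 1, all lower. The 5 lower calls became 11 with slide as a fixed or a random block and 9 with array quality weights, and under median scaling there were 0 higher calls, so both glucose carriers lost theirs (adjusted p up to 0.274). Within the 1 slide that holds both populations the 7 differences were 2.82 for Slc2a1, 1.88 for Slc2a3, -2.84 for Pfkl, -2.69 for Aldoc, -2.37 for Pdk1, -3.46 for Bnip3 and -2.36 for Egln3.

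The glucose carriers rose. Slc2a1 encodes GLUT1, the widespread glucose transporter of embryonic cells. Its log2 level was 5.27 and 4.70 on the 2 FLK1+ arrays, 6.76 and 5.96 at 5 h, and 7.97 and 7.80 in d1 BC. All d1 BC arrays lay above all FLK1+ arrays, with the 5 h arrays between them. From FLK1+ to d1 BC it rose by 2.90 log2 units (SE 0.66), or 7.46-fold, at an adjusted p of 0.0140 in limma. It stayed high in SM, at 7.84, 7.98 and 6.90, and was lower in HE1 (6.46 and 4.75), HE2 (2.89 and 4.15) and HP (4.32 and 5.93). The difference of HE1 from d1 BC, -2.28 (SE 0.66), did not pass the test (adjusted p = 0.0709).

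Slc2a3 encodes GLUT3, a transporter with a high affinity for glucose. It stood at 5.25 and 4.58 in FLK1+ cells, 5.58 and 5.31 at 5 h and 6.92 and 6.79 in d1 BC. The rise to d1 BC was 1.94 (SE 0.47), or 3.85-fold (adjusted p = 0.0220, limma). Slc2a3 then fell by 2.15 (SE 0.47) from d1 BC to HE1, or 4.44-fold (adjusted p = 0.0175), where its levels were 4.50 and 4.91; leaving out any 1 of these 4 arrays ended that call (adjusted p up to 0.142). In SM it lay at 6.02, 5.68 and 6.40, in HE2 at 3.87 and 4.68, and in HP at 4.50 and 4.59, so that d1 BC and SM held the 5 highest untreated arrays for both glucose carriers.

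The lactate carriers differed from the glucose carriers. Slc16a3 encodes MCT4, which exports lactate. It lay at 6.83 and 5.83 in FLK1+ cells and at 3.91 and 2.70 in d1 BC, and varied by the F test (adjusted p = 0.00279). Its difference between those populations, -3.02 (SE 0.86), missed the threshold (adjusted p = 0.0534, limma) but passed in 15 of 40 alternatives (adjusted p from 0.000739 to 0.504). Slc16a1, which encodes MCT1, ranged from -3.38 to -1.53 over the untreated arrays and did not pass the F test.

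In upper glycolysis 2 of 9 genes fell from FLK1+ cells to d1 BC. Pfkl encodes the liver form of phosphofructokinase, which commits sugar to glycolysis. Its log2 level was 4.90 and 3.97 in FLK1+ cells, 3.29 and 2.97 at 5 h and 1.65 and 1.60 in d1 BC. The fall was 7.04-fold (log2 change -2.82, SE 0.66, adjusted p = 0.0161, limma). Pfkl stayed at 0.66, 0.15 and 1.81 in SM, 0.42 and 1.10 in HE1, 1.26 and 1.72 in HE2 and 2.25 and 1.44 in HP, all below every 5 h array. The muscle form Pfkm was at 3.20 and 2.45 in FLK1+ cells, 1.55 and 1.20 at 5 h and 2.17 and 1.96 in d1 BC, without overlap with FLK1+ at either time; its differences of -1.45 (SE 0.41, adjusted p = 0.0687, limma) and -0.76 (adjusted p = 0.449) were not called. The platelet form Pfkp ranged from -0.36 to 1.33 over the untreated arrays, with no call.

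Aldoc, the brain-type aldolase that splits fructose 1,6-bisphosphate, was at 2.79 and 1.85 in FLK1+ cells, 1.59 and 1.64 at 5 h and -0.04 and -0.37 in d1 BC. It fell by 2.52 (SE 0.55), or 5.75-fold (adjusted p = 0.00993, limma). On the sorted arrays it ranged from -1.20 in HE2 to 0.44 in SM, below all arrays of FLK1+ and FLK1+ 5h. Aldoa, the main aldolase, ranged from 7.77 to 9.85 and was not called. Hk1, a hexokinase that traps glucose in the cell, was the third gene of upper glycolysis to pass the F test (adjusted p = 0.0119). Its lowest untreated array was one of FLK1+ 5h at 0.76 and its highest one of HP at 4.84, and no pair of populations compared passed the test for it. Hk2, Gpi1 and Tpi1 passed neither test.

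Lower glycolysis held no call between populations in limma, although 4 of its 6 genes varied by the F test (Pgk1, Pkm, Eno2 and Pgam1). With the 1 probe used for each gene, the d1 BC mean was below the FLK1+ mean for all 6 genes. The median was -1.04 and the range -1.62 to -0.31. Quantile normalization left 1 of the 6 on the other side. Pgk1 encodes phosphoglycerate kinase, which makes ATP. Its log2 level was 8.75 and 8.04 in FLK1+ cells, 7.72 and 7.46 at 5 h, 6.63 and 6.91 in d1 BC, 6.36, 6.58 and 5.99 in SM, 6.20 and 7.00 in HE1, 6.06 and 6.64 in HE2 and 6.45 and 6.53 in HP. Both FLK1+ arrays lay above all others. The difference from FLK1+ to d1 BC was -1.62 (SE 0.49, adjusted p = 0.0717). Ldha, lactate dehydrogenase A, ranged from 7.43 to 9.83, with both FLK1+ arrays highest, and Eno1, enolase 1, from 6.53 to 8.97. Neither passed the F test. The 3 probes of Ldha gave -2.93 to -1.44 from FLK1+ to d1 BC, and the one used gave -1.44.

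**Figure D2:**
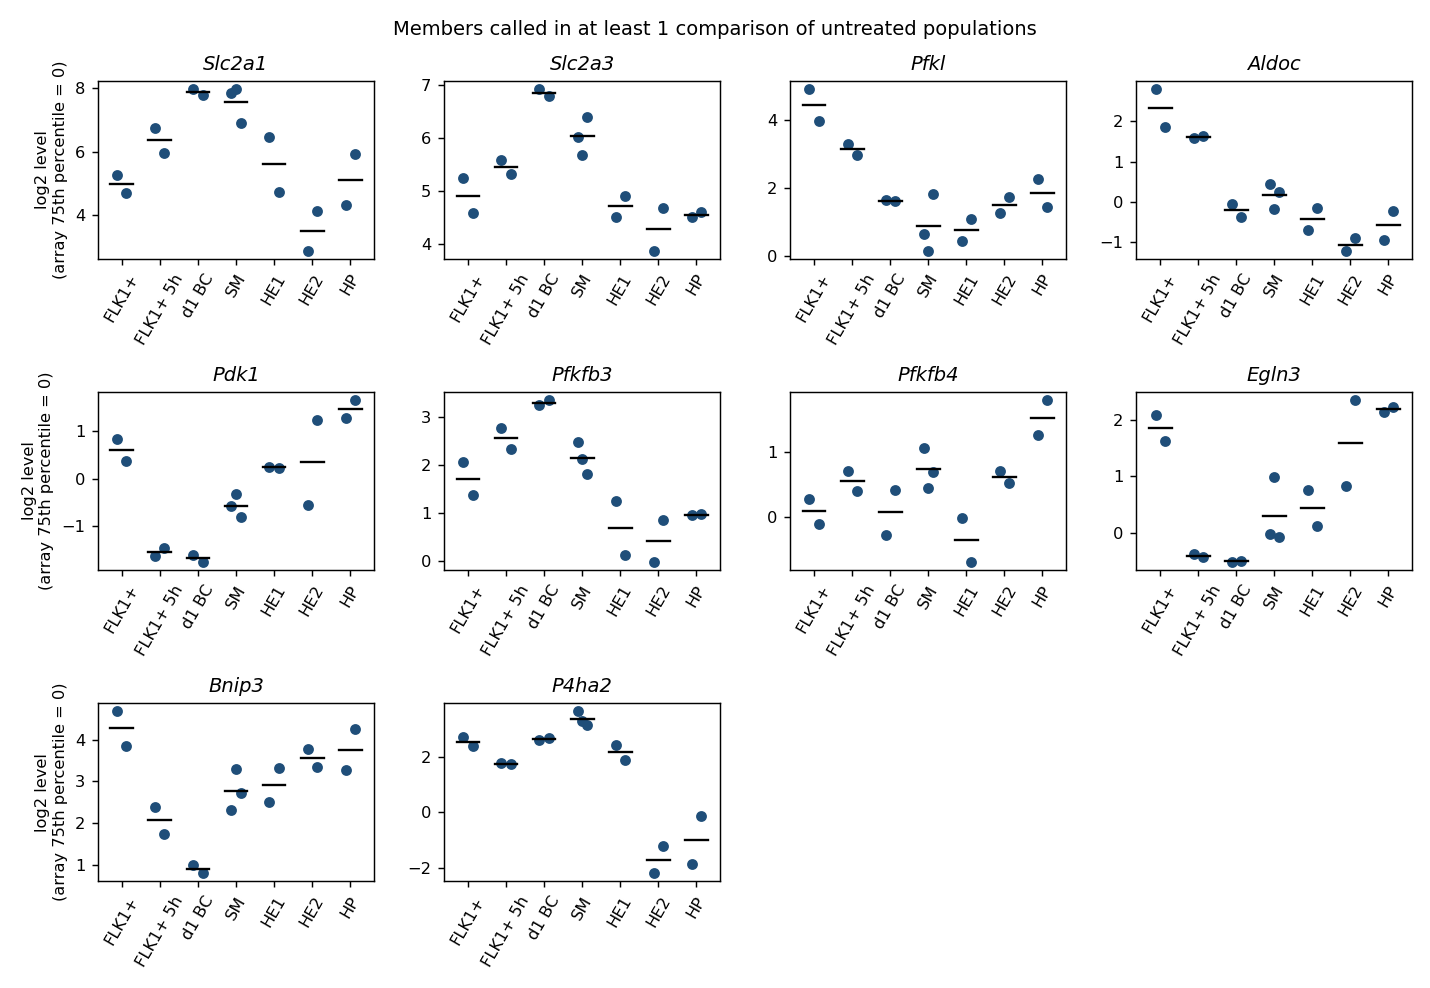
Log2 level (array 75th percentile set to 0) of the 10 genes called in at least 1 comparison of untreated populations; each point is 1 array and each bar the mean of a population. Slc2a1 and Slc2a3 climb from FLK1+ to d1 BC, Pfkl and Aldoc step down and stay low, Pdk1, Bnip3 and Egln3 dip at 5 h or d1 BC and are higher again in HP, and P4ha2 is lowest in HE2 and HP.

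Pdk1, Bnip3 and Egln3 also fell early, but unlike Pfkl and Aldoc their levels in HP overlapped or passed those of FLK1+ cells. Pdk1 encodes a kinase that shuts pyruvate dehydrogenase and so keeps pyruvate out of the citric acid cycle. It was at 0.85 and 0.38 in FLK1+ cells and already at -1.63 and -1.45 after 5 h. This fall of 4.46-fold (log2 change -2.16, SE 0.56, adjusted p = 0.0447, limma) was the only call of the 5 h comparison, 1 of 36 genes lower against a background of 0.273%. It passed in 17 of 40 alternative settings, and the adjusted p rose to 0.356 without FLK1+ 5h replicate 1. At d1 BC Pdk1 stood at -1.61 and -1.75, a difference of -2.29 from FLK1+ cells (SE 0.56, adjusted p = 0.0215). SM followed at -0.59, -0.33 and -0.81, HE1 at 0.25 and 0.22, HE2 at -0.55 and 1.24, and HP at 1.29 and 1.66, above both FLK1+ arrays.

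Bnip3 encodes a receptor for mitophagy on the outer mitochondrial membrane. It was at 4.68 and 3.86 in FLK1+ cells, 2.40 and 1.74 at 5 h and 1.00 and 0.81 in d1 BC, and fell by 3.36 (SE 0.68), or 10.3-fold (adjusted p = 0.00585, limma). All 3 probes of Bnip3 gave a change between -3.62 and -3.35. It was higher again in each sorted population, at 2.32, 3.29 and 2.72 in SM, 2.51 and 3.31 in HE1, 3.77 and 3.35 in HE2 and 3.27 and 4.25 in HP, but no step after d1 BC passed the test. Its relative Bnip3l ranged only from 5.08 to 6.01.

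Egln3 encodes PHD3, an oxygen-dependent hydroxylase that acts on HIFs and is itself a HIF target. Its log2 level was 2.10 and 1.63 in FLK1+ cells, -0.38 and -0.43 at 5 h and -0.52 and -0.50 in d1 BC, a fall of 5.17-fold (log2 change -2.37, SE 0.61, adjusted p = 0.0293, limma). Both of its probes gave -2.56 to -2.37. At 5 h the difference from FLK1+ cells was -2.27 (SE 0.61), just outside the threshold (adjusted p = 0.0515). Egln3 was at -0.03, 0.99 and -0.08 in SM, 0.77 and 0.12 in HE1, 0.84 and 2.35 in HE2 and 2.15 and 2.24 in HP. The HP arrays lay above those of FLK1+ cells, and no step between sorted populations was called.

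The 250 bases before the start of the 5 genes that fell from FLK1+ to d1 BC are shown as examples of where the core of the HIF site, a feature of most genes of the list that the list did not use, lies. They are from RefSeq on build GRCm38.p6, 5′ to 3′ on the gene's strand, for the most upstream start in the table. Capitals mark ACGTG or GCGTG on either strand, where CACGC is GCGTG read on the other strand.
Pfkl (chr10:78009808-78010057, minus strand): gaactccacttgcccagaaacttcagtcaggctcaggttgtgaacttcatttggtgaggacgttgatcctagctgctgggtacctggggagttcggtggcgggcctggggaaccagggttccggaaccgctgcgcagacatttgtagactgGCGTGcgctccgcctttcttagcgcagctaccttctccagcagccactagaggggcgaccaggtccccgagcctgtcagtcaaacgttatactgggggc
Aldoc (chr11:78322823-78323072, plus strand): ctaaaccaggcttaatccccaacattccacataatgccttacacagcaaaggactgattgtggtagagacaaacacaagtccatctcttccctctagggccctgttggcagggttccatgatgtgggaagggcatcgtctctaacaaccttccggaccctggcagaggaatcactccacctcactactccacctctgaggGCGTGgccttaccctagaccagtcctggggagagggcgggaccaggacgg
Pdk1 (chr2:71872974-71873223, plus strand): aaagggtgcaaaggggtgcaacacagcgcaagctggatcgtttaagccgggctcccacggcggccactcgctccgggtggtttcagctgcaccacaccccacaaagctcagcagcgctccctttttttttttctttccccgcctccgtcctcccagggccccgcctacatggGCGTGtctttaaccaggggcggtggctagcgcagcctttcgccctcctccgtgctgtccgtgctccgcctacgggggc
Bnip3 (chr7:138909507-138909756, minus strand): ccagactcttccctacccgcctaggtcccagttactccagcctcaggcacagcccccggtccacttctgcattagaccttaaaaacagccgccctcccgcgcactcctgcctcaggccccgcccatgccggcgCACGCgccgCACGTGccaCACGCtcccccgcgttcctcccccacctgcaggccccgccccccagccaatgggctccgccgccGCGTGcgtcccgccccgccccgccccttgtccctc
Egln3 (chr12:54203875-54204124, minus strand): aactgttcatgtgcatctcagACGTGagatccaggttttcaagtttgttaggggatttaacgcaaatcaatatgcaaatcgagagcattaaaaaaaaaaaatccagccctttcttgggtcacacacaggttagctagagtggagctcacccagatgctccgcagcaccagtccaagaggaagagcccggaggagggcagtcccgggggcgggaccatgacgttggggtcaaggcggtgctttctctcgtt

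Each of the 5 holds at least 1 core, as do 31 of the 34 genes of the list with a window (91.2%, against 46.7% of all genes in the table and 61.5% of those tested), so the core does not set these 5 apart. Counted from the start of the gene, the first letter of the core lies at -99 in Pfkl, -50 in Aldoc, -78 in Pdk1 and -229 in Egln3, and Bnip3 has 5, at -117, -108, -107, -99 and -35. The pair in Bnip3 at -108 and -107 is a single CACGTG, which contains ACGTG on both strands and is also the E-box. In windows of 300 bases (250 before to 50 after a start), ACGTG stood in 24 of the 34 genes with a window, or 70.6%, against 21.8% of all genes in the table and 26.7% of those tested on the arrays. GCGTG stood in 24 of 34 as well (70.6% against 35.2% and 50.3%) and CACGTG in 5 (14.7% against 8.09% and 10.7%). The AP-1 site TGANTCA stood in 3 (8.82% against 8.97% and 6.84%), namely Aldoa, Car9 and Kdm3a, and in none of the 5 printed sequences. The windows of these genes were also richer in G and C, with a median of 64.7% against 52.7% and 59.3%. The part of base composition in the shares was not tested. A match is a description of letters, and the data hold no binding of HIFs. Slc2a3, Bnip3l and Ndrg1 had no window.

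Of the other regulators, Pfkfb3 and Pfkfb4 encode enzymes that set fructose 2,6-bisphosphate, the activator of phosphofructokinase. Pfkfb3 was at 2.06 and 1.38 in FLK1+ cells, 2.78 and 2.33 at 5 h and 3.25 and 3.35 in d1 BC. In SM it was at 2.49, 2.13 and 1.81, in HE1 at 1.26 and 0.13, in HE2 at -0.01 and 0.86 and in HP at 0.96 and 0.98. It fell from d1 BC to HE1 by 2.60 (SE 0.50), or 6.08-fold (adjusted p = 0.00691, limma), although its second probe gave only -0.57. With Slc2a3 it made 2 of 36 genes lower in HE1, against a background of 1.27%. Quantile normalization called 8 genes in this step and the authors' processed values 9. HE1 and d1 BC arrays share no slide, so slide and population cannot be told apart in this step, and with slide as a fixed term, estimated through the other groups, neither passed (adjusted p = 0.122 for Pfkfb3 and 0.163 for Slc2a3). Pfkfb3 was not called without HE1 replicate 2 or either d1 BC array (adjusted p up to 0.129).

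Pfkfb4 rose from HE1 to HP by 1.88 (SE 0.51), or 3.68-fold (adjusted p = 0.0439, limma), the 1 gene higher of 37 tested against a background of 1.68%. Its levels were -0.03 and -0.70 in HE1, 0.71 and 0.52 in HE2 and 1.25 and 1.79 in HP, with FLK1+ at 0.28 and -0.12, FLK1+ 5h at 0.70 and 0.39, d1 BC at -0.28 and 0.40 and SM at 1.06, 0.44 and 0.68. A second probe of Pfkfb4, too dim to be tested in this step, gave -2.61, and the mean of both probes reversed the difference to -0.36 (adjusted p = 0.863). Its call held in 20 of 40 alternatives and not without any 1 of the HE1 or HP arrays (adjusted p up to 0.332). Pdk3, another pyruvate dehydrogenase kinase, varied by the F test (adjusted p = 0.0386), with both HE1 arrays, -0.27 and 0.19, among its 3 lowest.

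P4ha2 had the largest of the falls called between sorted populations. It encodes a subunit of the prolyl hydroxylase that matures collagen. Its log2 level was 2.73 and 2.38 in FLK1+ cells, 1.77 and 1.75 at 5 h, 2.62 and 2.68 in d1 BC, 3.64, 3.28 and 3.15 in SM and 2.44 and 1.90 in HE1, against -2.18 and -1.22 in HE2 and -1.85 and -0.15 in HP. The 4 arrays of CD41+ cells lay below all 11 others. From HE1 to HE2 the fall was 14.6-fold (log2 change -3.87, SE 0.56, adjusted p = 0.00105, limma), 1 of 36 genes lower against a background of 1.78%, and from HE1 to HP it was 8.99-fold (-3.17, SE 0.56, adjusted p = 0.00207), 1 of 37 against 2.59%. Within the 2 slides that hold these groups the differences were -4.61 and -3.13 for HE2 and -4.29 and -2.05 for HP. The call in HE2 held in all 40 alternatives, and that in HP in 38 of 40, being lost without HP replicate 1 (adjusted p = 0.0781) and under median scaling (0.0756). The summed fibroblast markers moved the same way, at 5.35 to 6.29 in HE1, 1.76 to 2.29 in HE2 and 2.21 to 3.47 in HP, as did the smooth muscle markers, at 7.89 to 9.08, 5.78 to 5.79 and 5.60 to 7.86. Their part in the fall of P4ha2 was not tested. P4ha1, the other catalytic subunit measured, ranged from -1.25 to 1.60 and Ero1a, an oxidase of the endoplasmic reticulum, from -2.26 to 0.58, and neither passed the F test.

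The 6 other hypoxia-induced genes had no call between populations. Ddit4, which encodes an inhibitor of the growth kinase mTORC1, varied by the F test (adjusted p = 0.0188). It was at 6.19 and 4.79 in FLK1+ cells, 5.24 and 4.20 at 5 h, 4.06 and 2.70 in d1 BC, 4.33, 3.70 and 3.56 in SM, 3.37 and 3.45 in HE1, 2.36 and 3.16 in HE2 and 0.94 and 2.74 in HP. The FLK1+ and FLK1+ 5h arrays overlapped, and both lay above all HE1, HE2 and HP arrays. Adm, the vasodilator peptide adrenomedullin, also varied (adjusted p = 0.0442), and 5 of its 6 highest untreated arrays were those of SM and d1 BC (-0.62 to 0.51). Ankrd37 was lower in d1 BC than in FLK1+ cells by 2.67 with an adjusted p of 0.297. Car9, the tumour-associated carbonic anhydrase, was well above background on 13 of 27 arrays and could be tested in 5 of 15 comparisons, and Egln1, the main HIF hydroxylase PHD2, on 21 of 27. The other 35 genes were above background on all 27 arrays.

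The other 4 comparisons held no call among the genes in limma: d1 BC against FLK1+ 5h, SM against d1 BC, SM against HE1 and HP against HE2. Of all genes tested they called 1.39%, 0.247%, 0.53% and 0.00395%. At an unadjusted p under 0.05, 3 genes were higher and 2 lower in d1 BC against FLK1+ 5h (background 5.75% and 5.01%), 3 and 1 in SM against d1 BC (4.68% and 1.33%), 7 and 0 in SM against HE1 (5.02% and 3.54%), and 1 and 0 in HP against HE2 (2.59% and 3.35%). SM against HE1 had a median of 0.40 over the 36 genes, against -0.06 over all genes (0.44 without SM replicate 2 and 0.17 without HE1 replicate 1), and the higher direction held without overlap for 14 of 36 genes (38.9%, background 13.1%). Beside this, the summed fibroblast markers were at 7.24 or more in SM and 5.35 to 6.29 in HE1, the erythroid markers at 6.08 to 8.95 and 5.36 to 5.37, and the pluripotency markers at 4.33, 0.80 and 3.83 in SM and 0.89 and 1.37 in HE1. Their part was not tested. Its largest difference was that of Adm (2.80, SE 0.74, adjusted p = 0.0906).

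The rest of the pathway was read from other lists. Among 19 other glycolysis genes tested, 6 varied over the untreated populations, against 17.8% of all genes. Ldhb, the heart-type lactate dehydrogenase, fell from FLK1+ to d1 BC by 2.83 (SE 0.59, adjusted p = 0.00762, limma), alongside Pfkl and Aldoc, from 5.68 and 4.83 to 2.67 and 2.17. Slc2a6, which encodes the transporter GLUT6, rose from FLK1+ to d1 BC by 1.82 (SE 0.49, adjusted p = 0.0412, limma, called in 20 of 40 alternatives), as Slc2a1 and Slc2a3 did, and from 5 h to d1 BC by 2.98 (adjusted p = 0.00436). It was at -2.71 and -2.28 in HE1, -0.28 and 0.32 in HE2 and 2.36 and 2.79 in HP, and rose from HE1 to HP by 5.07 (SE 0.49, adjusted p = 7.95e-06). Slc2a4, the insulin-responsive GLUT4, fell from HE1 to HE2 by 2.39 and from FLK1+ to 5 h by 2.26. Gapdh was not called in any comparison, with a change of -0.59 from FLK1+ to d1 BC (adjusted p = 0.861).

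Of 35 other hypoxia-induced genes tested, 17 varied among the untreated populations (17.8% of all genes did), and 4 fell and 1 rose from FLK1+ to d1 BC (1.79% and 2.7% of all genes). The largest falls were those of Ndufa4l2, a mitochondrial protein known as a HIF target (-5.81, SE 0.79, adjusted p = 0.000225), Selenbp1 (-4.52) and the lipoprotein receptor Vldlr (-4.14). Edn1, the vasoconstrictor endothelin 1, rose at least 26.6-fold (adjusted p = 0.0091), its FLK1+ arrays being not well above background. Vegfa, the main HIF-induced growth factor of vessels, did not follow: its change was 1.61 (SE 0.84, adjusted p = 0.41). The HIF genes were not called either, with 0.75 (SE 0.62, adjusted p = 0.729) for Hif1a and -0.50 (SE 0.49, adjusted p = 0.811) for Epas1, and of 13 HIF genes and regulators 2 varied by the F test. None of 23 genes of pyruvate entry and the citric acid cycle and none of 23 of the respiratory chain did, and 1 of 7 of the pentose phosphate pathway. Of 11 immediate early and heat shock genes, whose level can follow cell handling, 6 varied by the F test, against the same 17.8%. Hspa1a, a heat shock chaperone, rose at 5 h by 3.41 (adjusted p = 0.00732) and fell again by 2.66 to d1 BC, and the part of handling in the changes at 5 h was not tested.

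With DOX no gene of the list was called in any of the 6 populations. Over all genes tested limma called 0.0084% in SM, 0.0318% in HP and 0% in each of the other populations, so few genes of any kind passed. The F test over all 6 DOX effects called none of the 37 genes (0.0318% of all 28306 genes), and that of differences between populations none of any kind. At an unadjusted p under 0.05, d1 BC had 1 gene higher and 0 lower (background 0.513% and 1%), and HE2 had 3 higher and 1 lower (4.4% and 3.94%). The others had none, against 5.08% higher and 0.156% lower over all genes at 5 h, 0.709% and 1.94% in SM, 0.539% and 0.621% in HE1, and 1.2% and 2.25% in HP. The median over the list was 0.22 in HE2 (0.11 over all genes), 0.21 in HP (0.29), 0.14 in HE1 (0.09), 0.11 in SM (0.08), 0.05 in d1 BC (0.13) and -0.15 at 5 h (0.01). These counts do not show that the genes were unaffected: with 2 arrays a group, the SE of a difference ran as high as 1.34 for Egln1.

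**Figure D3:**
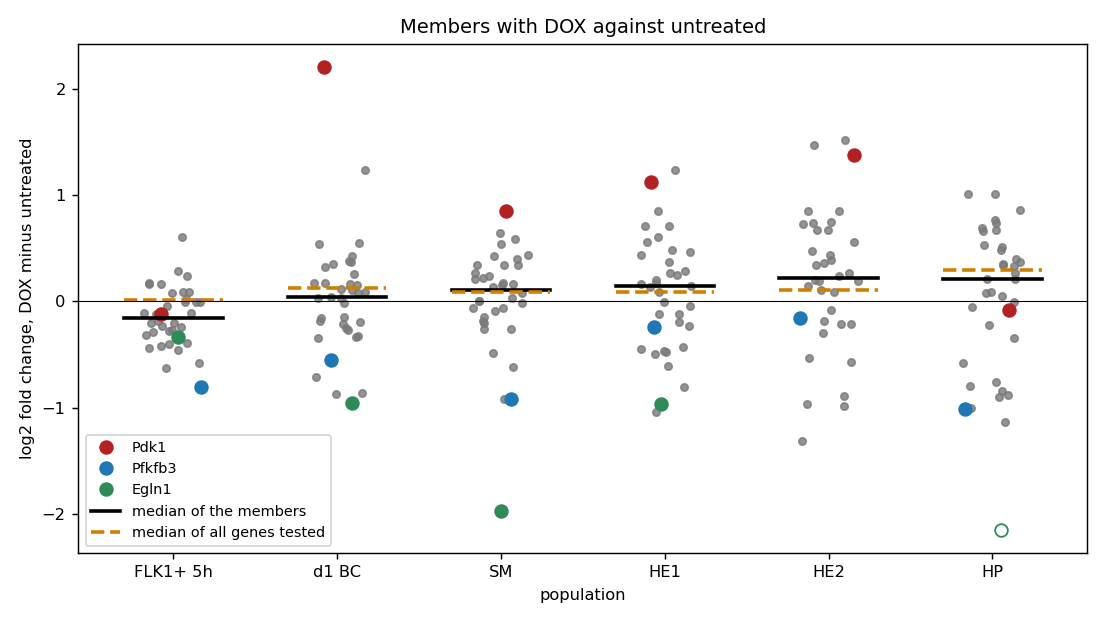
Log2 fold change with DOX (DOX minus untreated) of each gene of the list tested in each population. Grey points are genes, with Pdk1, Pfkfb3 and Egln1 in colour and hollow where 1 group was not well above background. The solid bar is the median of the list and the dashed bar that of all genes tested. Pdk1 stands highest in d1 BC at 2.21. Egln1 is drawn lowest in SM and HP, where its place rests on DOX arrays not well above background.

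Pdk1 had the largest difference upwards in both d1 BC and SM. In d1 BC it was at 1.05 and -0.00 with DOX against -1.61 and -1.75 without, a difference of 2.21 (SE 0.56), with no overlap. The unadjusted p was 0.000914 and the adjusted p 1.00, and none of 40 alternative settings called it (lowest adjusted p 0.132). With DOX its levels were -0.09 and 0.64 in SM, 1.00 and 1.73 in HE1, 1.51 and 1.93 in HE2, 1.13 and 1.66 in HP and -1.97 and -1.37 in FLK1+ 5h. Taken within slides, Pdk1 was higher with DOX in 9 of 11 pairs, with 2.66 and 1.75 in d1 BC, 0.97 and 0.49 in SM, 0.75 and 1.51 in HE1 and 2.07 and 0.69 in HE2, but -0.15 and -0.00 in HP. Limma's F test over the 6 populations gave it a p of 0.0043, adjusted p = 0.786.

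With 1 probe a gene, Egln1 had the largest fitted difference downwards in d1 BC, SM and HP, at -0.96 (SE 1.34), -1.98 (SE 1.22) and -2.15 (SE 1.34). In SM and HP that rank rests on DOX arrays not well above background. Ndrg1, above background on every array, was at 1.37 and 1.44 with DOX in HP against 2.21 and 2.86. A second probe of Pfkfb3 gave -1.97 in SM. In HP, other probes of Tpi1 and Ldha had lower values (-3.29 and -2.62), where the probes used gave 0.05 and 0.69. In SM Egln1 was at -1.47 and -6.55 with DOX against -2.10, -2.26 and -1.75 without. In HP it was at -4.65 and -7.21 against -3.41 and -4.15. Neither DOX array was well above background, so the size of that difference was not measured (adjusted p = 0.988, limma). The low values were those of 1 slide. On it the DOX arrays of SM, HE1, HE2 and HP read -6.55, -5.09, -6.55 and -7.21, none well above background, so that the differences there are not measured. Over all slides Egln1 was lower with DOX in 9 of 11 pairs and higher in 2 (SM, -1.47 against -2.10, and HE1, -2.54 against -3.06). The lower pairs on other slides were those of d1 BC (-3.23 against -1.83 and -1.23 against -0.73), FLK1+ 5h (-1.88 against -1.68), HE2 (-2.93 against -2.74, the latter not well above background) and HP.

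**Figure D4:**
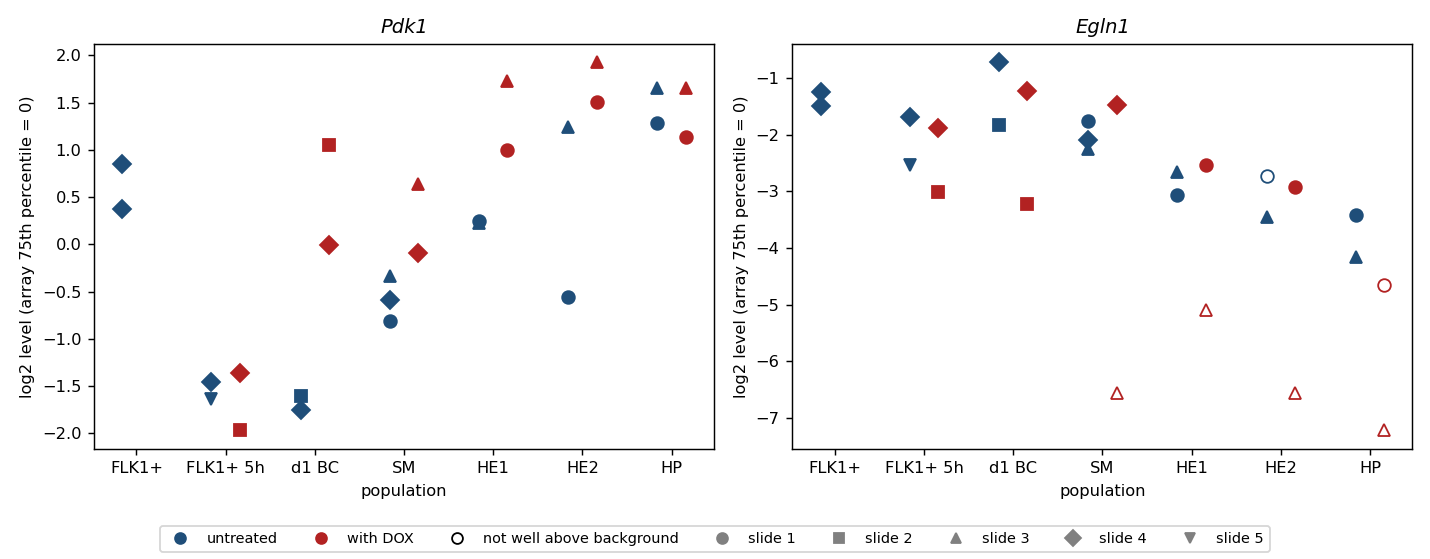
Log2 level of Pdk1 and Egln1 on every array by population, untreated and with DOX, with the marker shape giving the slide and hollow symbols for arrays not well above background. Both Pdk1 arrays with DOX lie above both without in d1 BC, and the 4 lowest Egln1 arrays are DOX arrays of 1 slide.

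The remaining extremes are those of the 1 probe used for each gene. Other tested probes had lower values with DOX in HE2 (Pfkfb3 -3.12, Tpi1 -1.95, Ldha -1.89 and Hk1 -1.35) and HE1 (Pfkfb3 -1.59, Ldha -1.50, Tpi1 -1.45 and Slc16a3 -1.10). In HP another tested probe of Pfkp had a higher value, 1.11. In FLK1+ 5h Slc16a1 had the largest difference upwards, 0.61 (SE 0.50), with -2.0 and -2.47 against -3.38 and -2.30, and Pfkfb3 the largest downwards, -0.80 (SE 0.50), with 1.31 and 2.18 against 2.78 and 2.33; on the 1 slide that holds both groups these were -0.17 and -0.15. In HE1, Adm was at -2.58 and -0.20 against -2.36 and -2.89 (1.24, SE 0.81) and Slc16a3 at 0.18 and 2.33 against 1.38 and 3.22 (-1.04, SE 0.86), with overlap in both. In HE2, the histone demethylase gene Kdm3a was at 2.86 and 3.62 against 1.00 and 2.45 (1.52, SE 0.61, adjusted p = 0.568). Pkm, which encodes pyruvate kinase, was there at 5.18 and 3.53 against 5.74 and 5.60 (-1.31, SE 0.73), and Pdk1 (1.38), Slc2a1 (1.47) and Pfkp (-0.96) were the other genes of HE2 at an unadjusted p under 0.05. The second probe of Pfkp gave 1.23 there, so its direction depends on the probe. In HP, Ddit4 was at 2.50 and 3.20 against 0.94 and 2.74 (1.01, SE 0.74) and Pfkfb4 at 2.19 and 2.87 against 1.25 and 1.79, also 1.01.

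Within slides, Aldoc was the gene of the list with the most uniform sign, higher with DOX in 11 of 11 pairs by 0.21 to 1.20. Pfkp and P4ha1 were lower in 10 of 11 pairs, and Pgk1 and Higd1a higher in 10 of 11. That is 3 of 37 genes higher in at least 10 pairs (8.11%, against 5.8% of all genes tested) and 2 lower (5.41% against 1.6%). The second probe of Pfkp went the other way in d1 BC (0.33), HE2 (1.23) and HP (1.11), and that of P4ha1 was above 0 in SM (0.23), HP (0.17), HE1 and HE2 (both under 0.01). These signs were read off after the values were seen, pairs of 1 slide share its conditions, and none of the 5 genes passed a test. Outside the list, Slc2a6 was lower with DOX in HP, at -0.18 and -0.71 against 2.36 and 2.79 (-3.02, SE 0.49, adjusted p = 0.0299, limma), a call that held in 24 of 40 alternatives and was lost without HP replicate 2 (adjusted p = 0.583).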

How the data were processed

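RNA of 27 samples in 13 groups was hybridised to 1-colour Agilent whole-genome mouse arrays. Per the file headers, the deposited scanner files hold spot intensities from Agilent Feature Extraction 10.7.3.1 (the labels name 10.7.1.1), background-subtracted in the processed signal. The authors also deposited a table of log2 values, made with limma, whose centring is not given in the sources used here; it served as an alternative. Genes were named by RefSeq accession: of 55681 probes 26582 got a symbol, and Cd68, Hspa1b and Selenbp2 of the other lists got none.

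Outlier spots were dropped, spots of a probe averaged, log2 of the processed signal taken and each array's 75th percentile subtracted. Limma 3.58.1 (R 4.3.3) fitted the 13 group means with eBayes on 14 residual degrees of freedom. A gene was tested if either group compared had its probe well above background on every array, which left 22091 to 25345 genes, and was called at an adjusted p under 0.05 (Benjamini-Hochberg) and a 2-fold change; F tests used the adjusted p alone. No spot was saturated and no arrays were identical. The number of arrays limits the precision. Bounds use the lowest signal well above background on an array.

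Genes named with every array are those called, the gene with the lowest F test p of a role without calls, and the largest difference in each direction with DOX. Genes of other lists are named if called, up to 4 a list, beside Hif1a, Epas1, Vegfa, Gapdh and Hprt. Slc16a3, Ankrd37, Hk1, Adm, Pdk3 and the within-slide signs were added after their values were seen. The list and the other lists were chosen with earlier results of these data known. The fitting steps were tested on simulated data. Alternatives changed the background correction, scaling, filter, probe rule, block, error model and arrays. Probes of Gapdh, Pgk1, Eno1 and other genes with near-identical copies may take signal from the copies, which was not tested. Promoter windows were searched on both strands in Python 3.11.15.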

Additional observations from a re-analysis of the deposited data

Results flagged for a closer look

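With DOX, 5 genes of the list had every array of 1 population above and every array of another below the untreated arrays, or 13.5% of 37, whereas 25.3% of all 28306 genes tested did. The difference between the 2 DOX effects was 1.61 log2 units for Eno2 (0.74 in HP, -0.87 in d1 BC), 1.43 for Pfkfb4 (1.01 in HP, -0.42 in FLK1+ 5h), 0.94 for Pfkm (0.66 in HP, -0.27 in d1 BC), 0.52 for P4ha2 (0.17 in FLK1+ 5h, -0.34 in d1 BC) and 0.35 for Pdk3 (0.09 in HP, -0.26 in SM). Limma's F test of whether the DOX effect differs among the 6 populations was passed by none of them: its unadjusted p ran from 0.392 for Pfkfb4 to 0.865 for P4ha2, and the adjusted p was 1.00 for each. These pairs of populations were picked as the extremes, and the difference within each pair was not tested on its own.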

How the results depend on the processing

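The counts of genes of the list called with DOX stayed at 0 under every alternative run. The 13 calls between untreated populations became 27 with quantile normalization, 34 with the authors' processed values, 26 with slide as a fixed block, 35 with slide as a random block, 22 with a mean-variance trend and 36 with array quality weights; 13 of the 13 were among them in each case except slide as a fixed block, which shared 10. Median scaling gave 9 calls, 7 of them shared, and normexp background correction 16, 12 of them shared. Leaving out 1 array gave 2 (without d1 BC replicate 2) to 17 calls (without either HE2 array). Of the 37 genes, 18 passed the F test among untreated populations, and 10 (without FLK1+ replicate 1) to 18 did with 1 array left out. The mean of all probes, 1 of 2 being too dim to test there, reversed Pfkfb4 in HP against HE1, to -0.36. With the replicate number as a block, 17 calls were made between untreated populations, 17 genes passed the F test and none was called with DOX. Same-numbered arrays deviated together in all populations but FLK1+ 5h (correlation -0.15, elsewhere 0.26 to 0.60), where the arrays numbered 1 lie on different slides. The labels give no shared culture and not every population correlated, so the block was kept as an alternative. Crossing the 5 h numbers, chosen after seeing the data, gave 14 calls and 16 genes by the F test. Median scaling moved the median of all genes by -0.72 in HE1 against d1 BC and by 0.58 in HP against HE1. Relative to that of all genes, the median of the list from FLK1+ to d1 BC was -0.57, and -0.57 to -0.32 over the alternatives that keep all arrays; from FLK1+ to 5 h it was -0.46, and -0.54 to -0.13. The dim genes Car9 and Egln1 were poorly measured, being well above background on 13 and 21 of 27 arrays. For Egln1 the other arrays had 75th percentiles from 78.8 to 387 signal units. For Car9 they included the d1 BC arrays, at 531 and 726.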

Other observations

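From HE1 to HP all 23 genes of pyruvate entry and the citric acid cycle tested were higher, by 0.29 to 1.68 log2 units with a median of 0.99, and so were all 23 of the respiratory chain, by 0.33 to 1.27 with a median of 0.62, against a median of 0.01 over all genes tested. None passed limma's test in that step. The size depended on the scaling. Quantile normalization gave medians of 0.71 (22 of 23 higher) and 0.34 (23 of 23) against 0.14 for all genes, and median scaling 1.57 and 1.21 against 0.60. The glycolysis and hypoxia genes were split in the same step, with 24 of 37 higher and a median of 0.36 (0.14 against 0.14 for all genes with quantile normalization, 0.94 against 0.60 with median scaling and 0.44 against -0.30 with normexp). HE1 was also low against other populations: from d1 BC to HE1, 1 of 23 and 2 of 23 genes were higher (medians -0.50 and -0.80), and from HE1 to SM 22 and 18 of 23. With quantile normalization 7 and 5 of 23 were higher from d1 BC to HE1 (medians -0.17 and -0.42), and 22 and 14 from HE1 to SM. SM was also below d1 BC, with 6 and 0 of 23 higher (medians -0.20 and -0.48). The HE1 arrays were dimmer, with a 75th percentile of 140 and 145 signal units against 326 and 457 for HP, and from HE1 to HP the summed erythroid markers went from 5.36 and 5.37 to 7.30 and 8.02 and the progenitor markers from 5.20 and 5.44 to 7.00 and 7.20. Their part was not tested. All these lists share the HE1 and HP arrays and their scaling.

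Of 11 genes of the integrated stress response 3 varied among the untreated populations by limma's F test (17.8% of all genes did), and from HE1 to HP 2 of 11 were called higher and 0 lower (1.68% and 2.59% of all genes). Phgdh, the first enzyme of serine synthesis from a glycolytic intermediate, fell from d1 BC to HE1 by 1.96 (SE 0.43, adjusted p = 0.0179, limma) and rose from HE1 to HE2 by 2.49 (SE 0.43, adjusted p = 0.00405, limma) and to HP by 2.73 (SE 0.43, adjusted p = 0.000862), and the transcription factor gene Cebpb rose to HP by 3.87. From d1 BC to HE1, Hif3a, a HIF family member, rose by 3.54 (SE 0.69, adjusted p = 0.00802, limma). Rpia of the pentose phosphate pathway rose from HE1 to HP by 2.50.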
